A study of Mus musculus with 31 samples.

Results

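RASL-seq counts reads from probe pairs that are ligated across known splice junctions, and each probe event holds 1 short count and 1 long count. In a cassette event these are the junction that skips an exon and a junction into that exon. Some junctions were listed under more than 1 event. All events whose gene symbol and position were both shared with another event in the same file were taken here. They numbered 43 of the 1743 events in the R6/2 files, 39 of 1785 in the Q150 files and 43 of 1839 in the Q175 files. Over all files this made 47 of 1922 events at 23 positions, each in a different gene. Every position carried 2 events except that of Camk2d, which carried 3 events, 2 of the cassette type and 1 of the type TwoMulx. The rule itself uses no measured value.

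The libraries came from the cortex of 31 mice and were compared between Huntington's disease (HD) models and wild type (WT) mice. R6/2 HD mice (n = 3), which carry a transgene with the first exon of human HTT and an expanded CAG repeat, were set against R6/2 WT mice (n = 3). The knock-in lines carry the expanded repeat in the mouse Htt gene itself: Q150 HET (150Q/7Q, n = 4), Q150 HOMO (150Q/150Q, n = 4), Q175 HET (175Q/7Q, n = 4) and Q175 HOMO (175Q/175Q, n = 3). The 10 knock-in WT mice had 7 glutamines on both alleles, and 5 of them shared the event list of the Q150 files and 5 that of the Q175 files. No mouse was treated, and RNA was taken from 1 hemisphere. R6/2 mice were 3 months old. Knock-in mice were 7 months (Q150) or 18 months old (Q175). The methods sentence behind these ages has the numbers of homozygotes of the lines the other way round from the labels, while a legend of the study has them as the labels do, so the match of line and age is likely but not certain. In bulk cortex, fewer cells of a type and less RNA per cell cannot be told apart.

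A cassette exon is joined to its neighbours or left out as a unit. When the splicing machinery can choose between several exons or several splice sites in 1 intron, all of these choices compete for the same pair of flanking splice sites, and the junction that leaves everything out is common to them. A ratio of skipping to inclusion therefore depends on which inclusion junction is read.

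Of that structure, the shared skip count was seen, which alone does not show competing exons. At all 23 positions the short counts of the paired events (in Camk2d, of the 2 cassette events) were equal in every mouse. So the position was the skip junction and it was 1 measurement listed under 2 ids. At 10 of the positions the long counts were equal in every mouse too, so those pairs were 1 reading printed under 2 ids. Among them were C2cd5 (listed as 5730419I09Rik), Foxn3, Nrxn2, Rcor3, Tra2a, Uspl1, Akap13 (Q175 files only) and Nnat (R6/2 files only). At the other 13 the long counts of the pair differed in every mouse. The 43 listed events of the R6/2 files thus held 34 distinct combinations of a short and a long count, the 39 of the Q150 files 31 and the 43 of the Q175 files 34. Counts that are copies are not replicates of each other, and each copied pair is described below as 1 reading.

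The file positions did not lie at the coordinates of the mm10 (GRCm38) build named in the submitters' processing notes: of 1846 gene and position combinations whose symbol is in GENCODE M21, 43 fell on an annotated junction, while 1677 had a junction of the same gene with exactly the same span. Exons were therefore found by gene symbol and span, and all coordinates below are those of the matched GRCm38 junctions, not of the files. Of the 23 positions, 22 matched 1 junction each and that of Aifm1 matched none. The matched junctions enclose 48 annotated exon forms, of which 31 are wholly coding and 22 of these a multiple of 3 bases long. Among positions with more than 1 annotated exon form, the forms shared a single 3′ splice site at 6 of 9 positions with copied counts and at 0 of 9 positions with different long counts. Of the positions with 1 annotated form, and so a single 3′ splice site, Fbxw11, Gtf2i and Mfn2 had different long counts and Tra2a had copied counts. This is a description, and which exon a probe reads was taken only from counts, as below.

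The exons are shown because they are what the paired long probes can tell apart, and all sequences are from the GRCm38 transcripts of GENCODE M21. Mdmx (Mdm4, an inhibitor of p53) and R3hdm2 (a protein with an R3H domain) each have forms that end alike and begin at different 3′ splice sites. Capitals mark the bases found only in the longer form, 29 in Mdmx (chr1:133004654-133004721, minus strand) and 18 in R3hdm2 (chr10:127462188-127462283, plus strand).
Mdmx: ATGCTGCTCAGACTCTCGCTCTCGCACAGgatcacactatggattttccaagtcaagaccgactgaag
R3hdm2: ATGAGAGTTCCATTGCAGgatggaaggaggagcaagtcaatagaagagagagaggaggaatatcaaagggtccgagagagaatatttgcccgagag

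Camk2d, the delta chain of calcium/calmodulin-dependent kinase II, has 3 separate exons inside its shared skip junction (chr3:126801761-126810639, plus strand). In the junction, the upstream exon is in lower case and the downstream exon in capitals. The 33-base exon (chr3:126802937-126802969) is known to code for a nuclear localisation signal, and the exons of 60 bases (chr3:126805857-126805916) and 42 bases (chr3:126808208-126808249) follow it.
Camk2d skip: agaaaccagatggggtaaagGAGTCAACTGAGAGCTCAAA
Camk2d 33: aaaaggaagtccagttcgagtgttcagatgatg
Camk2d 60: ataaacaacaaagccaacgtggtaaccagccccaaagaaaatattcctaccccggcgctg
Camk2d 42: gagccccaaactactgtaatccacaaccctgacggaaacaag

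Sorbs2, an adaptor protein of the actin cytoskeleton with SH3 domains, has exons of 159, 84 and 57 bases inside its skip junction (chr8:45775703-45789976, plus strand; exons at chr8:45782802-45782960, chr8:45783543-45783626 and chr8:45785269-45785325). Capitals in the junction again mark the downstream exon.
Sorbs2 skip: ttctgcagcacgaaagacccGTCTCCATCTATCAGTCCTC
Sorbs2 159: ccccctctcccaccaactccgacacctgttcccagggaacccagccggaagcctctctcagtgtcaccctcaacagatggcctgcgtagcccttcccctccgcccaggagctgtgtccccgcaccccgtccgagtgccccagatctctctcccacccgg
Sorbs2 84: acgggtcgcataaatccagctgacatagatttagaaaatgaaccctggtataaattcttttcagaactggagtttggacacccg
Sorbs2 57: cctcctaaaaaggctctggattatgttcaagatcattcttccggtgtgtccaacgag

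Rbfox2, itself a regulator of splicing that binds RNA, has exons of 40 and 43 bases inside its skip junction (chr15:77086155-77097940, minus strand; exons at chr15:77094451-77094490 and chr15:77091812-77091854). Neither length is a multiple of 3, and the 2 exons are known as brain and muscle alternatives in this gene family.
Rbfox2 skip: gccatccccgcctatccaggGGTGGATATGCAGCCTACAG
Rbfox2 40: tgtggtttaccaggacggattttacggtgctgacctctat
Rbfox2 43: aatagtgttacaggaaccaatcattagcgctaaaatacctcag

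Counts shared with events outside the set named some of these exons. The long count of Camk2d event 3972 equalled, in every mouse of all 3 file sets, the short count of event 4554, whose span from the same upstream exon ends at the start of the 42-base exon, so event 3972 read the direct joining of the upstream exon to the 42-base exon. The exon read by Camk2d event 9000 was not found in this way. The third Camk2d event, 8961, held no further reading, because its short count was the long count of event 9000 and its long count that of event 3972. In Sorbs2, the long count of event 4748 equalled the short count of event 8229, whose span ends at the 57-base exon, so event 4748 read the upstream exon joined directly to the 57-base exon. The long count of Sorbs2 event 4833 equalled the long count of that same event 8229, so it read a junction into an exon that lies between, where the annotation holds those of 159 and 84 bases. Both Uspl1 ids (8228 and 9408) read the joining to an exon that starts at 149187708 on chromosome 5, which has forms of 127 and 169 bases. The long counts of Mdmx events 3936 and 9158 were the short and long counts of event 8392, which the files list under Mdm4 as an alternative 3′ splice site.

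Short and long counts summed over the listed events ran from 2171709 to 5256516 per mouse, with shared counts added more than once. No junction of a listed event fell below 4 counts in any mouse, and the lowest count was 4 or 5 in each mouse. Whether events with lower counts were left out of the lists is not stated. Of the marker genes listed for the tissue check, 11 of 15 for neurons, 3 of 6 for oligodendrocytes, 0 of 5 for astrocytes, 0 of 4 for microglia and 1 of 4 for vascular cells had an event, so these files cannot give the makeup of the tissue. The part of cell makeup in the changes below was not tested.

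The level of the paired events was compared first in WT mice, as exclusion, the percentage 100 × short / (short + long). Because the short count is shared, a difference in exclusion within a pair is only a difference between 2 long counts, and probes of unequal efficiency and unequal junction use cannot be told apart in it. In the R6/2 WT mice the exclusion of the 2 events did not overlap between mice at 10 of 12 positions. The background, over all pairs of events of 1 gene with different counts, was 87.7% (364 of 415), so positions shared by 2 events were not set apart by this. In the Q150 set it was 8 of 11 positions against a background of 85.0%, and in the Q175 set 10 of 12 against 88.1%. The median difference in exclusion was 18.8 percentage points at the shared positions of the R6/2 set and 35.0 for pairs of events of 1 gene at different positions. The positions whose levels overlapped were Cpne1 and Gtf2i in all 3 sets and Aifm1 in the Q150 set.

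R3hdm2 had the widest gap. In the 3 R6/2 WT mice its skip count was 6750, 5433 and 9454, and the long count was 31, 36 and 71 for event 4891 and 8999, 6015 and 10139 for event 9354. Exclusion was thus 99.4% ± 0.15 (SD, n = 3) by event 4891 and 46.2% ± 2.91 by event 9354. Over the 10 knock-in WT mice the difference was 54.4 ± 1.55 percentage points and had the same sign in 10 of 10 mice (exact two-sided sign-flip permutation test, p = 0.00195, the smallest that 10 mice allow). With 3 R6/2 WT mice this test cannot go below 0.25. Aifm1, whose levels overlapped over the 10 knock-in WT mice, reached the same p of 0.00195, so this p does not set the widest gaps apart.

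Rbfox2 and Tsc22d2 followed. Rbfox2 had 13, 15 and 19 skip counts in the R6/2 WT mice, with long counts of 10, 12 and 17 for event 7670 and of 179, 144 and 280 for event 8797. Its exclusion was 55.0% ± 1.94 by event 7670 and 7.52% ± 1.67 by event 8797. The difference over the knock-in WT mice was 44.0 ± 8.30 percentage points, with the same sign in 10 of 10 (exact p = 0.00195 by the same test). Tsc22d2, of the family of TSC22-domain regulators, was listed only in the R6/2 files. Its long counts in the WT mice were 8, 4 and 7 for event 9119 and 56, 27 and 64 for event 9071, and the exclusion was 84.8% ± 2.64 and 42.9% ± 7.04. These are low counts.

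Levels overlapped in at least 1 set at 3 positions. Gtf2i, a general transcription factor, gave 98.0% ± 0.68 and 97.3% ± 0.45 in R6/2 WT mice and differed by 0.67 ± 0.84 points (n = 3). Cpne1, a calcium-dependent phospholipid-binding protein, differed by 9.11 ± 6.09 percentage points in the R6/2 WT mice and by 6.09 ± 4.19 over the 10 knock-in WT mice. Aifm1, a mitochondrial flavoprotein, overlapped only in the Q150 set. It differed by 33.0 ± 0.64 points in the R6/2 WT mice, by 9.91 ± 2.14 in the Q150 set and by 22.3 ± 10.6 in the Q175 set, on long counts of 5 to 10 for event 7692 in the first. The remaining pairs of the R6/2 set differed by 10.3 points in Dlgap4 to 22.0 in Mdmx.

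Changes with the mutation were then tested as the log2 ratio of short to long counts in limma, fitted over all events of a file set, with Benjamini-Hochberg adjusted p under 0.05 over all of them. A positive value means more exclusion in the mutant. In R6/2 HD mice 10 of 43 listed events passed, or 8 of 34 distinct combinations, against a background of 28.6% of all 1743 events. In Q150 HOMO mice 8 of 39 passed (7 of 31 distinct combinations, background 23.9%), and in Q175 HOMO mice 7 of 43 (7 of 34, background 7.07%). In Q150 HET mice 0 of 39 passed (background 3.47%) and in Q175 HET mice 0 of 43 (background 0.598%). At an unadjusted limma p under 0.05 these 2 comparisons had 6 and 7 listed events, a threshold at which no background was counted. A quasi-binomial model also called 0 in both. The median change of the listed events was 0.05 in R6/2 HD mice and 0.15 in Q150 HOMO mice, beside 0.18 and 0.19 over all events. It was 0.03 beside 0.10 in Q150 HET, 0.06 beside 0.04 in Q175 HET and 0.04 beside 0.07 in Q175 HOMO mice. Distinct combinations that passed were split between directions, with 4 higher and 4 lower in R6/2, 4 and 3 in Q150 HOMO and 4 and 3 in Q175 HOMO mice. In each of these groups the lower ones included Camk2d event 8961. That event holds no skip count and no further reading, so its fall is not one of exclusion and the split is less even without it. Over all events that passed, 73.9% (368 of 498), 82.9% (354 of 427) and 79.2% (103 of 130) were higher in the same order. A count of ids without regard to copies would count Rcor3 and Uspl1 in R6/2 mice and Uspl1 in Q150 HOMO mice each as a pair of calls.

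Whether the paired events changed differently was tested by the difference of their log2 ratios, fitted over all pairs of events of 1 gene. Where the short count is shared this is the change in the ratio of the 2 long counts. It passed at 4 of 12 positions in R6/2 HD mice (Camk2d, Dlgap4, Rbfox2 and Sorbs2; background 23.4% of 415 pairs). It passed at 2 of 11 in Q150 HOMO mice (Camk2d and Sorbs2; background 11.8%) and at the same 2 of 12 in Q175 HOMO mice (background 3.42%). In Q150 HET mice it passed at 1 of 11 (Sorbs2, background 3.0%) and in Q175 HET mice at 0 of 12 (background 0.228%). At an unadjusted limma p under 0.05 the Q175 HET mice had 2 of 12, a threshold at which no background was counted. The 2 events of a position changed in the same direction at 10 of 12 positions in R6/2 HD, 7 of 11 in Q150 HET, 7 of 11 in Q150 HOMO, 6 of 12 in Q175 HET and 10 of 12 in Q175 HOMO mice. For pairs of events of 1 gene at different positions the shares were 55.6%, 57.7%, 60.8%, 53.8% and 49.5%. Since events at 1 position share a count, a common direction is partly built in.

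At Sorbs2 the 2 ids of 1 position moved apart. In the 3 R6/2 WT mice the counts of event 4748 (joining to the 57-base exon) were 352, 281 and 367 and those of event 4833 (joining to an exon before it) 806, 500 and 975, so that their ratio was 0.437, 0.562 and 0.376. In the 3 HD mice the counts were 389, 546 and 567 against 504, 577 and 526, and the ratio was 0.772, 0.946 and 1.08. All HD mice lay above all WT mice. The skip counts were 485, 352 and 614 in WT and 497, 585 and 553 in HD mice. As a share of the 3 junctions together, joining to the 57-base exon made up 21.7% ± 3.03 (SD, n = 3) of counts in WT and 31.5% ± 3.26 in HD mice, joining to the earlier exon 47.7% ± 3.10 and 34.0% ± 2.16, and skipping 30.7% ± 1.00 and 34.5% ± 1.11. These are shares of probe counts, not of RNA molecules.

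The Sorbs2 ratio of event 4748 to event 4833 rose by 1.03 ± 0.20 on the log2 scale (SE, limma adjusted p = 0.00386) in R6/2 HD mice. In the Q150 set it was 0.226 to 0.359 in the 5 WT mice, 0.348, 0.430, 0.576 and 0.701 in the HET mice and 0.466, 0.559, 0.721 and 0.888 in the HOMO mice. The HOMO mice did not overlap with WT, and 1 HET mouse did. The log2 rise was 0.87 ± 0.22 (adjusted p = 0.0316) in Q150 HET and 1.24 ± 0.22 (adjusted p = 0.000437) in Q150 HOMO mice. In the Q175 set the ratio was 0.191 to 0.241 in WT, 0.218 to 0.426 in HET and 0.254, 0.340 and 0.402 in HOMO mice, and the log2 rise was 0.48 ± 0.16 (adjusted p = 0.189) in HET and 0.62 ± 0.18 (adjusted p = 0.0429) in HOMO mice. The Q150 HET call was lost without WT replicate 2, 3 or 4 or HET replicate 1 or 2 (adjusted p 0.0572 to 0.152). The Q175 HOMO call was lost without WT replicate 6, 9 or 10 or HOMO replicate 1 or 3 (adjusted p 0.0672 to 0.228).

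Read as single events, the Sorbs2 pair gave opposite answers in Q150 HOMO mice. The log2 short-to-long ratio fell by 0.60 ± 0.17 (limma adjusted p = 0.0134) by event 4748 and rose by 0.64 ± 0.15 (adjusted p = 0.00290) by event 4833. The fall by event 4748 was not called without Q150 HOMO replicate 1 (-0.46, adjusted p = 0.0714). In R6/2 HD mice event 4833 rose by 0.66 ± 0.12 (adjusted p = 0.00158), while event 4748 gave -0.37 (adjusted p = 0.0989). In Q175 HOMO mice event 4833 rose by 0.51 ± 0.13 (adjusted p = 0.00950), which was lost without HOMO replicate 1 (0.42, adjusted p = 0.0961) or 3 (0.48, adjusted p = 0.0595), with the number series described below as a term (0.52, adjusted p = 0.0523) and with all 10 knock-in WT mice (0.43, adjusted p = 0.0684). Event 4748 gave -0.11 there.

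At Camk2d the share of the 42-base exon joined directly grew. In the R6/2 WT mice event 3972 had 33, 26 and 25 counts and event 9000 had 94, 81 and 103, a ratio of 0.351, 0.321 and 0.243. In the HD mice the counts were 92, 114 and 124 against 180, 198 and 224, a ratio of 0.511, 0.576 and 0.554. No HD mouse overlapped with a WT mouse. The shared skip count was 489, 359 and 524 in WT and 612, 971 and 991 in HD mice. Of the 3 junctions together, event 3972 held 4.92% ± 0.95 (SD, n = 3) in WT and 9.52% ± 0.79 in HD mice, and event 9000 held 16.1% ± 1.10 and 17.5% ± 2.56.

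The ratio of Camk2d event 3972 to event 9000 rose by 0.84 ± 0.26 on the log2 scale (SE, limma adjusted p = 0.0399) in R6/2 HD mice. In the Q150 set it was 0.227 to 0.363 in the 5 WT mice, 0.262, 0.403, 0.423 and 0.438 in the HET mice and 0.337, 0.491, 0.584 and 0.618 in the HOMO mice, where HOMO replicate 4 lay within the WT range. The rise was 0.47 ± 0.24 (adjusted p = 0.377) in HET and 0.87 ± 0.24 (adjusted p = 0.0221) in HOMO mice. In the Q175 set the ratio was 0.147 to 0.188 in WT, 0.237 to 0.290 in HET and 0.238, 0.470 and 0.542 in HOMO mice, with neither mutant group overlapping WT. The rise was 0.65 ± 0.25 (adjusted p = 0.314) in HET and 1.26 ± 0.27 (adjusted p = 0.00340) in HOMO mice. The R6/2 call held in 1 of 6 fits that left out a mouse, that without WT replicate 3, and was lost without WT replicate 4 or 6 or any HD replicate (adjusted p 0.0680 to 0.121) and when same-position pairs were fitted alone. The Q150 HOMO call was lost without WT replicate 4 or HOMO replicate 1, 2 or 3 (adjusted p 0.0537 to 0.0833), and the Q175 HOMO call without HOMO replicate 3 (adjusted p = 0.0545).

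The 3 Camk2d ids gave 3 answers in the single-event fit. By event 3972 the short-to-long ratio fell by 1.06 ± 0.23 on the log2 scale (limma adjusted p = 0.00493) in R6/2 HD and by 1.33 ± 0.23 (adjusted p = 0.000152) in Q175 HOMO mice, and gave -0.59 (adjusted p = 0.0808) in Q150 HOMO mice, which passed with the number series as a term (-0.64, adjusted p = 0.0160). By event 9000, with the same short count, it gave -0.22 (adjusted p = 0.401), -0.07 (adjusted p = 0.871) and 0.28 (adjusted p = 0.222) in those groups, and none passed. The TwoMulx event 8961 is the ratio of events 9000 and 3972 over again, so its falls of 0.84 ± 0.24 (R6/2 HD), 0.87 ± 0.22 (Q150 HOMO) and 1.26 ± 0.26 (Q175 HOMO) repeat the ratio above with an SE from the other fit. The R6/2 fall of event 8961 (adjusted p = 0.0195 over all events) was lost without HD replicate 868 or 869 or WT replicate 6 (adjusted p 0.0639 to 0.0672).

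The numbers of the knock-in mice in the labels fell into a low and a high series within each line, whose meaning is not stated (1 Q175 HET mouse has slightly different numbers in title and file, both of the low series), and the Q175 HET mice were all of the low and the Q175 HOMO mice all of the high series. Within the low series the log2 ratio of Camk2d event 3972 to 9000 was higher than in WT by 1.00 in Q150 HOMO (2 against 3 mice) and by 0.58 in Q175 HET mice (4 against 3). Within the high series it was higher by 0.81 in Q150 HOMO (2 against 2) and by 1.37 in Q175 HOMO mice (3 against 2). For Sorbs2 event 4748 over 4833 the values were 1.54 and 0.40 in the low series and 0.96 and 0.73 in the high series, in the same order. With the series as a term, Camk2d passed in Q150 HOMO (adjusted p = 0.00191) and Q175 HOMO mice (adjusted p = 0.0249), and Sorbs2 passed in Q150 HET (adjusted p = 0.00677) and Q150 HOMO mice (adjusted p = 9e-06) but not in Q175 HOMO mice (0.73, adjusted p = 0.0580). In that fit Sorbs2 event 4748 also passed in Q150 HET mice (-0.46, adjusted p = 0.0149).

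Rbfox2 had few counts in the junction that moved. In the R6/2 WT mice event 7670 had 10, 12 and 17 long counts and in the HD mice 7, 6 and 5, while the long counts of event 8797 went from 179, 144 and 280 to 381, 406 and 484. All HD mice were below all WT mice for the first and above them for the second. The counts summed over the listed events were 2171709 to 3527614 in WT and 3438725 to 4337557 in HD mice, and the part of depth in the change was not tested. The shared skip count was 13, 15 and 19 in WT and 31, 40 and 37 in HD mice. The ratio of event 7670 to event 8797 was 0.0559, 0.0833 and 0.0607 in WT and 0.0184, 0.0148 and 0.0103 in HD mice, and fell by 2.16 ± 0.43 on the log2 scale (limma adjusted p = 0.00430). It passed without each of the 6 mice in turn (highest adjusted p = 0.0215).

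By event 7670 Rbfox2 exclusion was 55.0% ± 1.94 in R6/2 WT and 81.6% to 88.1% in the HD mice, a log2 rise of 2.22 ± 0.42 (limma adjusted p = 0.00162), while by event 8797 it was 7.52% ± 1.67 and 7.86% ± 0.98, a log2 change of 0.06 (adjusted p = 0.901). In Q150 HOMO mice neither event passed (0.14 and -0.05 on the log2 scale), and their ratio gave -0.19 (adjusted p = 0.744). In Q150 HET mice event 7670 gave 0.89 (limma adjusted p = 0.126), more than in HOMO mice. Its exclusion was 64.9% to 75.9% there and 48.4% to 58.2% in WT, with no overlap. In Q175 HET mice it gave 0.98 (adjusted p = 0.272) and overlapped with WT. In Q175 HOMO mice both events passed, with rises of 1.72 ± 0.41 (adjusted p = 0.00592) by event 7670 and 0.85 ± 0.27 (adjusted p = 0.0462) by event 8797, and the difference between them, -0.86 ± 0.35, did not (adjusted p = 0.143). The first of these calls was lost without HOMO replicate 3 (1.40, adjusted p = 0.0705). The second was lost without WT replicate 6, 8 or 9 or any HOMO replicate (adjusted p 0.0712 to 0.215), with the number series as a term (adjusted p = 0.115), centred on the median event (0.81, adjusted p = 0.0672) and with all 10 knock-in WT mice (0.49, adjusted p = 0.321). The 31 libraries held 5 to 35 long counts of event 7670 each, so its values rest on few counts.

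Dlgap4, a scaffold protein of the postsynaptic density, had exclusions of under 1% by event 9229 in every R6/2 mouse. The R6/2 WT mice had 19, 19 and 16 skip counts, 136, 122 and 205 long counts of event 8585 and 2851, 2211 and 3659 of event 9229. The HD mice had 21, 31 and 25 skip counts and 264, 257 and 324 against 2963, 3670 and 3156 long counts. The ratio of event 8585 to event 9229 was thus 0.0477, 0.0552 and 0.0560 in WT and 0.0891, 0.0700 and 0.103 in HD mice, with no overlap. It rose by 0.70 ± 0.19 on the log2 scale (limma adjusted p = 0.0227), while neither single event passed (-0.41 by event 8585 and 0.30 by event 9229). The call was lost without HD replicate 869 (0.58, adjusted p = 0.0795), WT replicate 3 (0.63, adjusted p = 0.0628) or WT replicate 4 (0.74, adjusted p = 0.0502).

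In Q150 HOMO mice the Dlgap4 ids behaved the other way. The ratio of event 8585 to 9229 was 0.0637 to 0.0733 in WT and 0.0629 to 0.0719 in HOMO mice and gave a log2 difference of 0.01 ± 0.15 (limma adjusted p = 0.965), while both events passed, with rises of 0.79 ± 0.25 (adjusted p = 0.0274) and 0.80 ± 0.24 (adjusted p = 0.0207). The skip counts behind both were 16, 16, 23, 32 and 35 in WT and 28, 37, 43 and 51 in HOMO mice, and the 2 calls share these while each has long counts of its own. The call of event 8585 was lost in 6 of 9 fits that left out a mouse (WT replicates 1, 3 and 5 and HOMO replicates 1 to 3, adjusted p 0.0513 to 0.0820) and that of event 9229 in 2 (WT replicate 3 and HOMO replicate 1, adjusted p 0.0595 and 0.0747). Both were lost with the ratios centred on the median event (0.59 and 0.60, adjusted p 0.103 and 0.0828), and that of event 8585 also with all 10 knock-in WT mice (0.58, adjusted p = 0.0562). In Q175 HOMO mice neither event nor their ratio (0.28, adjusted p = 0.305) passed.

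At R3hdm2 1 of the 2 ids passed and the other did not, without a measurable difference between the changes. By event 9354 exclusion was 42.9%, 47.5% and 48.3% in R6/2 WT and 55.8%, 55.8% and 57.6% in HD mice. In the Q150 set it was 45.0% to 46.6% in WT, 45.7% to 50.2% in HET and 50.4% to 54.7% in HOMO mice. In the Q175 set it was 42.2% to 45.9%, 46.3% to 49.0% and 48.4% to 52.0% in the same order, with no overlap between either mutant group and WT. The log2 rise was 0.59 ± 0.09 (R6/2 HD, limma adjusted p = 0.000568), 0.43 ± 0.08 (Q150 HOMO, adjusted p = 0.000257) and 0.35 ± 0.07 (Q175 HOMO, adjusted p = 0.00202), and each passed without each mouse in turn. Without a variance trend the last did not pass (adjusted p = 0.105), and centred on the median event the Q150 HOMO rise was 0.23 (adjusted p = 0.0359).

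By R3hdm2 event 4891, with the same skip counts over 31 to 130 long counts, the changes were 0.51 (adjusted p = 0.245), 0.52 (adjusted p = 0.0524) and 0.09 (adjusted p = 0.836) in limma. With the number series as a term the second passed (0.48, adjusted p = 0.0254), so there both ids did. The ratio of the 2 long counts gave 0.08 ± 0.34, -0.09 ± 0.22 and 0.26 ± 0.19 in R6/2 HD, Q150 HOMO and Q175 HOMO mice (limma adjusted p 0.898, 0.830 and 0.473). No difference between the events was detected. The event with the larger long count had the smaller SE.

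Fbxw11, a substrate receptor of an SCF ubiquitin ligase, passed by 1 of its 2 ids, with lower exclusion. Event 8865 had an exclusion of 79.5%, 81.4% and 81.0% in R6/2 WT and 74.3%, 77.2% and 76.1% in HD mice, and a log2 fall of 0.40 ± 0.13 (limma adjusted p = 0.0314). In Q175 HOMO mice it fell by 0.37 ± 0.11 (adjusted p = 0.0405), with 76.0% to 78.3% against 79.1% to 82.9% in WT. In Q150 HOMO mice it gave 0.02 (adjusted p = 0.924). Event 7916, with 10 to 18 long counts in the R6/2 WT mice, gave -0.53 and -0.58 and did not pass (adjusted p 0.386 and 0.128). The ratio of the 2 long counts gave 0.12 ± 0.43 and 0.21 ± 0.25 (adjusted p 0.875 and 0.685). In Q150 HET mice event 7916 gave 0.86 (adjusted p = 0.0800) and event 8865 gave 0.01, and the ratio of the long counts gave -0.85 ± 0.29 (adjusted p = 0.172). The R6/2 call was lost without HD replicate 860 or 869 or WT replicate 4 or 6 (adjusted p 0.0645 to 0.0939). The Q175 call was lost without WT replicate 8, 9 or 10 or any HOMO replicate (adjusted p 0.0595 to 0.177) and with all 10 knock-in WT mice (-0.22, adjusted p = 0.365).

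Among the copied pairs, Uspl1 and Rcor3 changed. Uspl1, a SUMO-specific isopeptidase, had an exclusion of 96.2%, 97.2% and 96.8% in R6/2 WT and 93.2%, 89.5% and 91.4% in HD mice by both ids, from 50, 35 and 73 and then 118, 179 and 192 long counts. Its log2 ratio fell by 1.47 ± 0.21 (limma adjusted p = 0.000270), and in Q150 HOMO mice, at 93.8% to 96.2% against 96.2% to 97.3% in WT, by 0.71 ± 0.18 (adjusted p = 0.00640). It gave -0.25 (adjusted p = 0.596) in Q175 HOMO mice. Both falls passed without each mouse in turn.

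Rcor3, a corepressor that partners with histone demethylase, had 18, 6 and 19 skip counts over 445, 296 and 457 long counts in R6/2 WT and 43, 51 and 67 over 745, 787 and 852 in HD mice. Its exclusion was 3.29% ± 1.13 in R6/2 WT (SD, n = 3) and lay between 5.46% and 7.29% in the HD mice, above all WT mice. The log2 rise was 0.99 ± 0.33 (limma adjusted p = 0.0383). It was lost without WT replicate 4 or any HD replicate (adjusted p 0.0562 to 0.136), under the quasi-binomial model (0.91, adjusted p = 0.0520) and centred on the median event (0.84, adjusted p = 0.0741). In Q175 HOMO mice it gave 0.67 (adjusted p = 0.107).

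No event at the remaining positions passed in any comparison with WT mice. These included the copied pairs C2cd5, Foxn3, Nrxn2, Tra2a, Akap13 and Nnat and the pairs of Add1, Aifm1, Cpne1, Gtf2i, Mdmx, Mfn2 and Tsc22d2. The lowest adjusted p among them was 0.0529, for Mdmx event 9158 in R6/2 HD mice (0.90 ± 0.32, limma), where event 3936 gave 0.83 and the ratio of their long counts 0.06 ± 0.29 (adjusted p = 0.898). In Q175 HOMO mice the Mdmx ids gave -0.32 (event 9158) and 0.32 (event 3936), and the ratio -0.64 ± 0.25 (adjusted p = 0.131). Nrxn2, a presynaptic adhesion receptor, had an exclusion of 41.5% ± 1.95 in R6/2 WT, 39.7% ± 5.09 in Q150-set WT and 36.2% ± 6.20 in Q175-set WT mice, and changes of -0.45 to 0.26 across the 5 comparisons. Add1, a subunit of the membrane skeleton protein adducin, had 8280 to 13777 skip counts in the Q150-set WT mice and exclusions of 82.8% ± 0.80 and 97.7% ± 0.20, and its changes stayed between 0.06 and 0.36 by either id. Nnat, an imprinted proteolipid, gave the largest of these changes in size, -1.39 in R6/2 HD mice, on 4 to 8 long counts per WT mouse.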

How the data were processed

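The authors made 1 RASL-seq library per mouse (31 mice) from total RNA of cortex. Molecular identifiers are not stated, so counts need not be independent molecules. The deposited values, of the unit recorded as other, hold for each event, per the file headers, a short and a long junction count with no normalization. They carry commas as digit separators and, as deposited, did not pass a test for plain counts, so a negative binomial count test was not used. With the commas removed they were whole numbers. The aligner is not given in the sources used here.

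Members are all events that share gene symbol and position with another event of the file. Members and lists were chosen with earlier results of these data known. Groups came from the labels. Because every knock-in title says Q150 while mutant genotypes open with Q175, lines were taken from the glutamine numbers. Each sample is a separate mouse, and litters are not stated. Per mouse, log2((short + 0.5) / (long + 0.5)) was fitted with limma 3.58.1 (R 4.3.3), a mean per group, a variance trend on counts, a mean count of at least 10, and Benjamini-Hochberg adjustment over all events of the set. The pair test fitted the difference of 2 such ratios over all pairs of events of 1 gene, leaving out copies and same-position pairs with the Camk2d TwoMulx event. A quasi-binomial model of the 2 counts, other pseudocounts, filters, WT groups and left-out mice were alternatives. Scripts were tested on simulated data. Values per mouse are given for positions with an event called in R6/2 HD, Q150 HOMO or Q175 HOMO mice or a called difference, and for the 3 widest level differences in R6/2 WT mice. The contrast between models and the fit with copies listed once were chosen after seeing the data. Some members are counted but not reported by name here.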

Additional observations from a re-analysis of the deposited data

Results flagged for a closer look

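The change of some members differed between models in a single limma fit over all 31 mice and the events listed in all 3 file sets. Model, age and file set differ together in these contrasts and cannot be told apart. The rise of Rbfox2 event 7670 was larger in R6/2 HD than in Q150 HOMO mice by 2.08 on the log2 scale (adjusted p = 0.00789), and the ratio of its long count to that of event 8797 changed by -1.97 more (adjusted p = 0.00918). Dlgap4 event 8585 changed by -1.20 in R6/2 HD relative to Q150 HOMO mice (adjusted p = 0.0423), and the ratio of its long count to that of event 9229 by 0.69 (adjusted p = 0.0255). Uspl1 (1 reading under 2 ids) changed by -1.22 in R6/2 HD relative to Q175 HOMO mice (adjusted p = 0.0168). In the same contrast Mdmx event 9158 differed by 1.22 (adjusted p = 0.0438), while its change did not pass against WT in either model. Over all events 9.69% differed between R6/2 HD and Q150 HOMO mice and 11.6% between R6/2 HD and Q175 HOMO mice, and over all pairs of events of 1 gene 8.22% and 6.63%. Camk2d and Sorbs2 ratios did not pass in any of the 3 contrasts between models (lowest adjusted p = 0.302).

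Of 40 groups of 4 or 5 mice examined for a single distant value, 2 had one, and chance gives about 1 in 20. The log2 ratio of Camk2d event 3972 to 9000 was -1.92 in Q150 HET replicate 4, against -1.31 to -1.19 in the other HET mice. Uspl1 exclusion was 95.2% in knock-in WT replicate 7, against 97.2% to 97.9% in the other WT mice of its set.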

How the results depend on the processing

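None of the 31 changes that passed turned direction in 503 repeats under other settings, and 422 of these repeats still passed. Copied pairs were counted once here, but Camk2d event 8961 was counted beside the pair ratio that it repeats. The count of member events called moved by over 1.5 times from 0 to 5 in Q150 HET mice with all 10 knock-in WT mice and to 1 with the number series as a term, and in Q175 HOMO mice from 7 to 4 with all 10 WT mice and to 3 without a variance trend. The count of positions with a different change moved without a variance trend from 4 to 2 in R6/2 HD, from 1 to 0 in Q150 HET and from 2 to 1 in Q175 HOMO mice. Fitted alone, same-position pairs gave 2 in Q150 HET and 5 in Q175 HOMO mice, and the series term gave 1 in Q175 HOMO mice. Leaving out 1 mouse, the events called ranged from 6 to 12 in R6/2 HD, 0 to 1 in Q150 HET, 5 to 9 in Q150 HOMO, 0 to 0 in Q175 HET and 3 to 7 in Q175 HOMO mice. The positions with a different change ranged from 2 to 3, 0 to 1, 1 to 2, 0 to 1 and 0 to 2 in the same order, and the positions with levels apart from 10 to 12, 8 to 10 and 10 to 11 in the R6/2, Q150 and Q175 sets. Without a variance trend 10 changes no longer passed: the pairs of Sorbs2 (Q150 HET and Q175 HOMO), Camk2d and Dlgap4 (R6/2), and the events of Fbxw11 (R6/2 and Q175 HOMO), R3hdm2, Rbfox2 event 8797 and Sorbs2 event 4833 (Q175 HOMO) and Rcor3 (R6/2), at adjusted p 0.0535 to 0.195. Listing copies once is an alternative added after seeing the data. Centring on the median event shifts all ratios of a mouse alike and cancels within a pair. Junctions with few counts (Rbfox2 event 7670, Tsc22d2, Nnat) limit what can be detected. No paired analysis was possible because replicate numbers in the labels do not link mice of different groups.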
